A study of Mus musculus with 18 samples.

Results

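Long intergenic non-coding RNAs (lincRNAs) were followed in mouse CD8+ T cells that were activated with or without asparagine (Asn) in the medium. The 87 lincRNAs described here are the genes that the deposited table classes as lincRNA and that had at least 1000 counts summed over 18 libraries, of 685 lincRNAs and 18522 genes in the table. Gas5 and genes whose names begin with Snhg, which host small nucleolar RNAs, were left out by name, which removed Snhg6, Snhg12 and Snhg20. The other 595 lincRNAs had too few counts. The members were thus chosen by their class and their summed count, and the sums are given only as a description. Just inside the threshold were 4833445I07Rik with 1006 counts, Gm16001 with 1019 and Gm20342 with 1062, and just outside it were Gm42418 with 974, Gm11707 with 968 and Gm10451 with 874. The median member had 2501 counts. For 21 members the sum would fall under 1000 if 1 of the 6 groups were missing, and such a member may have entered through a group in which it was high.

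Most lincRNAs are transcribed by RNA polymerase II from their own genes between protein-coding genes. Most are spliced and polyadenylated but carry no long open reading frame. Some act as RNA in the nucleus, as scaffolds of nuclear bodies or on chromatin, others bind proteins or microRNAs (miRNAs) in the cytoplasm, and others matter mainly as precursors that are cut into miRNAs or as transcription units beside a gene they influence. Malat1 and Neat1 are abundant nuclear RNAs of nuclear speckles and paraspeckles, and Mir155hg and Mir17hg carry miRNAs that T cells use during activation and clonal expansion.

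Wild-type C57BL/6N mice, given as male and 8 to 12 weeks old in the labels of all samples, were the source of naive CD8+ T cells from lymph nodes and spleen. Anti-CD3 and anti-CD28 antibodies on the plate activated these cells, in complete medium (control) or in Asn-free medium with dialyzed serum (Asn restriction), for 4, 24 or 72 h. Each of the 6 groups had 3 libraries, described as experimental replicates from one experiment. Separate cultures are not stated, so p-values measure the spread between these libraries, which may be technical. Gene counts per library ran from 11417641 to 21872456. Control replicate 2 at 72 h, the smallest library, stood apart from its group: the chi-square per degree of freedom over genes was 11.49 and 16.25 for its pairs and 2.13 to 6.26 for all other pairs within groups, and its mitochondrial share was 0.439% of gene counts against 0.803% and 0.894%.

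The 24 h libraries went against their sex label. All 6 of them had 0 counts of the Y-linked genes Ddx3y, Kdm5d, Uty and Eif2s3y, and between 6474 and 15549 counts of Xist, the lincRNA that coats and silences the inactive X chromosome in female cells. In the 12 libraries from 4 h and 72 h, Xist had 0 to 5 counts and each of the 4 Y-linked genes had at least 197 (the plot of sex-linked genes by library). Control and Asn restriction were alike in this at each time, so a comparison between media compares libraries of the same kind. In any comparison of 24 h with another time, time and source of the cells cannot be told apart, and counts from 4 to 72 h are given beside those that use 24 h.

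**Figure D1:**
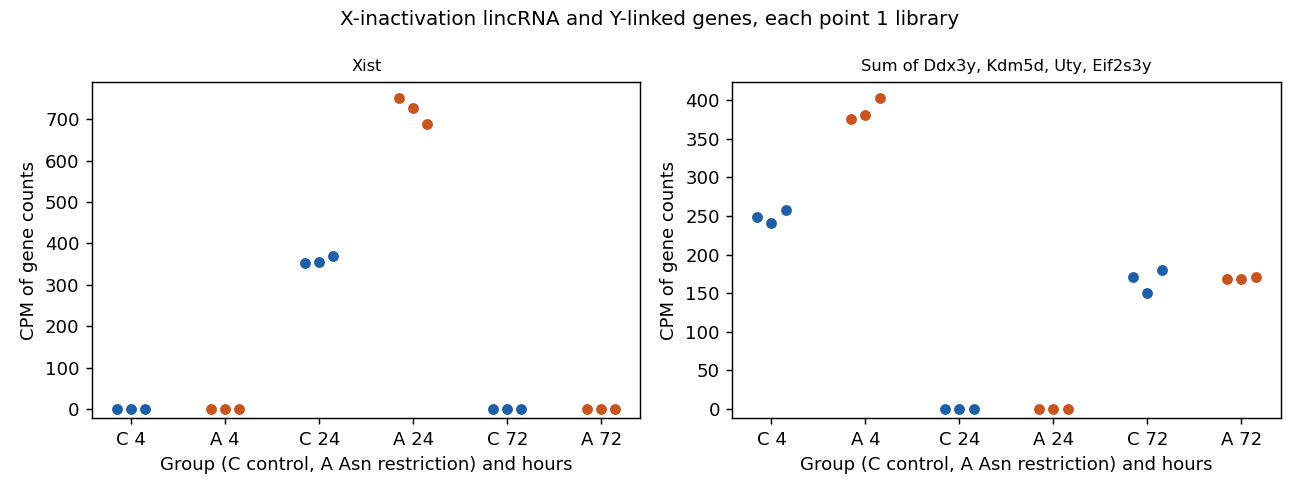
Counts per 1e6 gene counts (CPM) for Xist (left) and for the sum of 4 Y-linked genes (right) in each of 18 libraries, with control in blue and Asn restriction in orange. The 6 libraries from 24 h have Xist and no Y-linked RNA, and the 12 others have Y-linked RNAs and at most 5 counts of Xist.

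The label of CD8+ T cells was matched by the markers. Summed over 9 T cell genes (Cd8a, Cd8b1, the CD3 chains and the T cell receptor constant regions), the level was lower under restriction at 4 h (1956 to 1997 CPM against 2350 to 2411 in control) and at 72 h (1165 to 1187 against 1628 to 1673) and higher at 24 h (1966 to 2047 against 1807 to 1874), with none of the genes at 0. Cd8a itself had means of 254 CPM in control and 84.3 under restriction at 4 h. Myeloid and dendritic cell markers summed to at most 10.02 CPM in any library, but they too were higher under restriction at 24 h (8.05 to 8.65 against 4.66 to 5.50) and lower at 72 h (4.50 to 6.60 against 6.92 to 10.02). The B cell list reached 92.1 to 103.1 CPM in control and 54.2 to 60.3 CPM under Asn restriction at 24 h, of which Ighm gave most, and it was lower under restriction at 4 h (36.9 to 39.2 against 39.7 to 42.1) and 72 h (34.8 to 41.6 against 44.5 to 46.8) too. The list of NK and gamma-delta T cells moved with Asn restriction at 24 h (68.6 to 69.8 CPM in control, 114.3 to 118.2 CPM under restriction) through Eomes, which CD8+ T cells also express. It was lower at 4 h (53.3 to 59.8 against 75.5 to 80.99) and higher at 72 h (12.03 to 14.8 against 9.02 to 10.1). Cd4 itself was at or under 1.57 CPM in every library. The CD4+ and regulatory list was higher under restriction at 4 h (72.8 to 82.6 CPM against 46.9 to 53.4), where Ikzf2 gave most, and at 24 h (61.8 to 69.2 against 36.9 to 39.8), and it was lower at 72 h (76.6 to 82.8 against 154.6 to 159), at both later times mainly through Zbtb7b. None of these ranges overlapped. Those of the myeloid and dendritic list at 4 h did (7.733 to 8.793 CPM under restriction against 6.895 to 9.601 in control). The lists that were higher at 24 h and lower at 72 h moved in the direction of most called members. Their part in the results was not tested, and in bulk samples fewer cells of a type and less RNA per cell cannot be told apart.

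Most members are little described. Of 87, 64 carry only a clone or model name, and 86 were found in the GENCODE M21 annotation of GRCm38, on 20 chromosomes, the X included. Coordinates are those of GRCm38. The span of 50 members overlaps another annotated gene, 36 share exonic bases with one, 10 have a single exon, and 44 lie within 5 kb of the nearest protein-coding gene, 9 of them overlapping it. Whether reads were counted by strand is not given in the sources used here, so for overlapping genes the counts of both partners are uncertain.

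Malat1 alone held 44.6% of the members' counts. It had 2700 ± 81.8 CPM (counts per 1e6 counts of the TMM-scaled library; SD, n = 3) in control at 4 h, and per kilobase it was also the highest member over all libraries. Next by counts came 2900097C17Rik with 8.01%, which RefSeq names Norad and which binds Pumilio proteins, then Xist with 5.19%, AI504432, which lies 1434 bp from the potassium channel gene Kcna3, with 3.66%, and AW112010, a lincRNA of activated immune cells, with 3.60%. All members together took 0.456% of gene counts in control and 0.508% under Asn restriction at 4 h, 0.242% and 0.492% at 24 h, and 0.253% and 0.217% at 72 h. Without Malat1 these shares were 0.197% and 0.214%, 0.175% and 0.281%, and 0.187% and 0.154%. The members' summed share was thus about the same in both control groups from 24 h on, and it was higher under restriction at 24 h with Malat1 and without it.

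To ask how Asn restriction altered these transcripts, restricted cells were compared with control at each time by edgeR's quasi-likelihood test over all 14871 genes that passed the filter on low counts, which all 87 members passed. Members are described as having risen or fallen where the Benjamini-Hochberg adjusted p was under 0.05. At 4 h, 35 members rose and 10 fell, where 23.6% and 22% of all genes tested did so, and the median member changed by 0.33 on the log2 scale against 0.02 for all genes. At 24 h, 55 members rose and 9 fell, with 27.5% and 28% of all genes, and the medians were 0.62 and 0.015. At 72 h the balance was the other way, with 16 members higher and 29 lower against 25.4% and 23.8% of all genes, and medians of -0.10 and -0.01. Among all genes with at least 1000 counts, the threshold that chose the members, 31.4%, 30.8% and 34% rose and 29.8%, 36.8% and 29.3% fell at the 3 times. Control and restricted libraries did not overlap for 59 members at 4 h (46 of them higher under restriction), for 68 at 24 h (59 higher) and for 48 at 72 h (18 higher). Of all genes tested, 54.7%, 61.3% and 53.6% did not overlap.

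The counts at 4 h and 72 h depended on how the libraries were scaled. When libraries were scaled by their ERCC spike-ins, synthetic RNAs added to each sample, 12 members rose and 5 fell at 4 h, 57 rose and 1 fell at 24 h, and 19 rose and 5 fell at 72 h. That scaling moved the median of all genes to -0.11, 0.25 and 0.31 at the 3 times and the members' median to 0.19, 0.86 and 0.20, so that members stood above all genes at 4 h and 24 h and below them at 72 h under both scalings. The shift at 72 h leaned on 1 library. ERCC took 0.829% of counts in restricted replicate 2 at 72 h, against 1.26% and 1.497% in the other restricted libraries and 1.38% to 1.72% in control. Without that library, ERCC scaling gave 18 higher and 10 lower members at 4 h, 64 and 3 at 24 h, and 16 and 20 at 72 h, and the median of all genes at 72 h was 0.03. Of the calls that ERCC scaling ended (28 at 4 h, 8 at 24 h and 24 at 72 h), 11, 2 and 15 were made again in the same direction without that library. Values given below with ERCC scaling use all 18 libraries. With TMM, leaving out control replicate 2 at 72 h gave 14 higher and 27 lower at 72 h. The 5 that fell at 72 h with ERCC scaling of all libraries also fell without that restricted library. They were 2610035D17Rik (-1.21 on the log2 scale), 2900076A07Rik (-1.20), 5430416N02Rik (-1.15), Mir142hg (-0.74) and D730003I15Rik (-0.69). D730003I15Rik would have missed the count threshold without control at 72 h, the group in which it was high, so its fall is no independent result. Without TMM factors, 26 rose and 13 fell at 4 h, 63 and 9 at 24 h, and 13 and 31 at 72 h, with medians over all genes of -0.09, 0.12 and -0.12. For counts under other scalings than TMM, in this paragraph and below, the share of all genes called was not counted. Such counts show how the calls moved and have no background of their own. Of the 66 members that would reach 1000 counts without any 1 group, 28 rose and 10 fell at 4 h, 41 and 9 at 24 h, and 12 and 24 at 72 h. For the 36 members that overlap no other gene the counts were 11 and 8, 21 and 6, and 5 and 10.

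**Figure D2:**
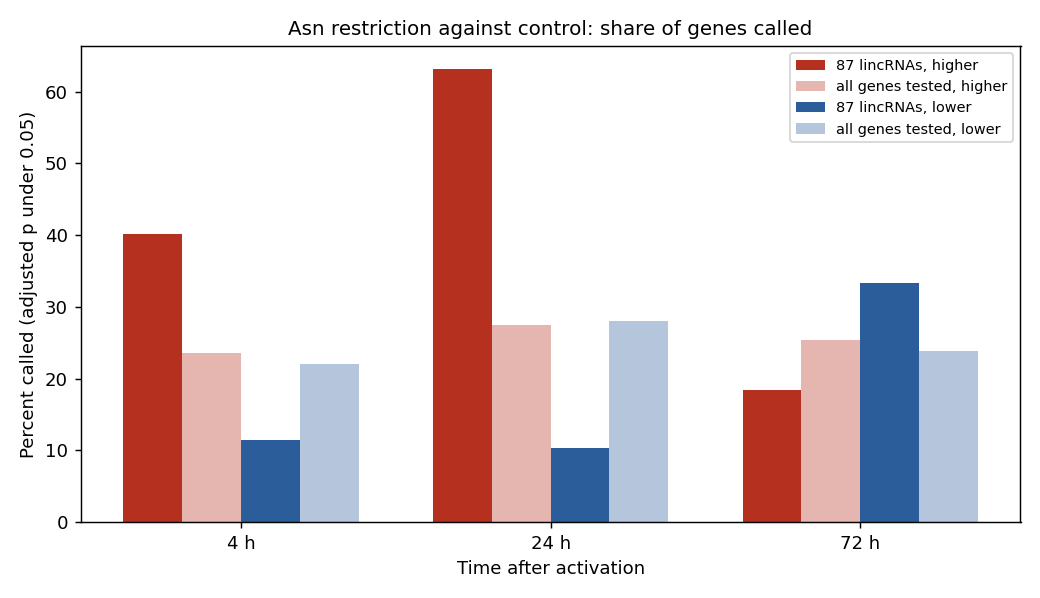
Percent of the 87 lincRNAs (full colour) and of all 14871 genes tested (pale) called higher (red) or lower (blue) under Asn restriction at 4, 24 and 72 h. At 24 h 63.2% of the lincRNAs were higher against 27.5% of all genes; at 72 h 33.3% were lower against 23.8%.

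Malat1 and Neat1, neighbours on chromosome 19, changed most at 24 h. Malat1 (ENSMUSG00000092341.2, chr19:5795690-5802672, minus strand), which collects with splicing factors in nuclear speckles, had 629, 658 and 671 CPM in the 3 control libraries and 1942, 1894 and 1856 CPM in the 3 restricted ones at 24 h. Restricted and control libraries were far apart (log2 change 1.54, standard error 0.045, adjusted p = 2.10e-22). At 4 h its level was already 2655, 2650 and 2794 CPM in control and 3381, 3232 and 3341 CPM under restriction, a smaller rise (log2 change 0.297, standard error 0.044, adjusted p = 1.23e-06; adjusted p = 0.629 with ERCC scaling). At 72 h the groups overlapped, at 640.3, 593 and 641 and 636, 696 and 613 CPM, and the change of 0.05 (standard error 0.045, adjusted p = 0.354) did not pass. Control cells were therefore low in Malat1 at 24 h and at 72 h, whereas restricted cells still held 1897 CPM at 24 h. The difference between the effects at 24 h and 4 h was 1.24 (standard error 0.063, adjusted p = 3.84e-16).

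Neat1 (ENSMUSG00000092274.3, chr19:5824708-5845478, minus strand), the RNA on which paraspeckles are built, was listed at a far lower level per kilobase than Malat1 (3.35 against 272 CPM per kb under restriction at 24 h). Control libraries had 16.4, 16.00 and 13.8 CPM at 24 h and restricted libraries had 65.9, 72.4 and 70.7 CPM. This was the largest rise of any member at that time (log2 change 2.18, standard error 0.084, adjusted p = 1.61e-19). A smaller rise came at 4 h, from 26.4 ± 2.36 to 37.97 ± 1.196 CPM (0.52 on the log2 scale; adjusted p = 0.178 with ERCC scaling). At 72 h Neat1 was 56.97 ± 2.18 CPM in control and 45.3 ± 4.58 CPM under restriction, a change of -0.34 (standard error 0.079, adjusted p = 0.000615) that was 0.02 with ERCC scaling and -0.28 without the restricted library of low ERCC share. Its highest mean was thus at 72 h in control cells and at 24 h in restricted cells. The nearest protein-coding gene to Neat1, Frmd8, 4224 bp away, changed by 0.05 (standard error 0.079, adjusted p = 0.635) at 24 h.

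**Figure D3:**
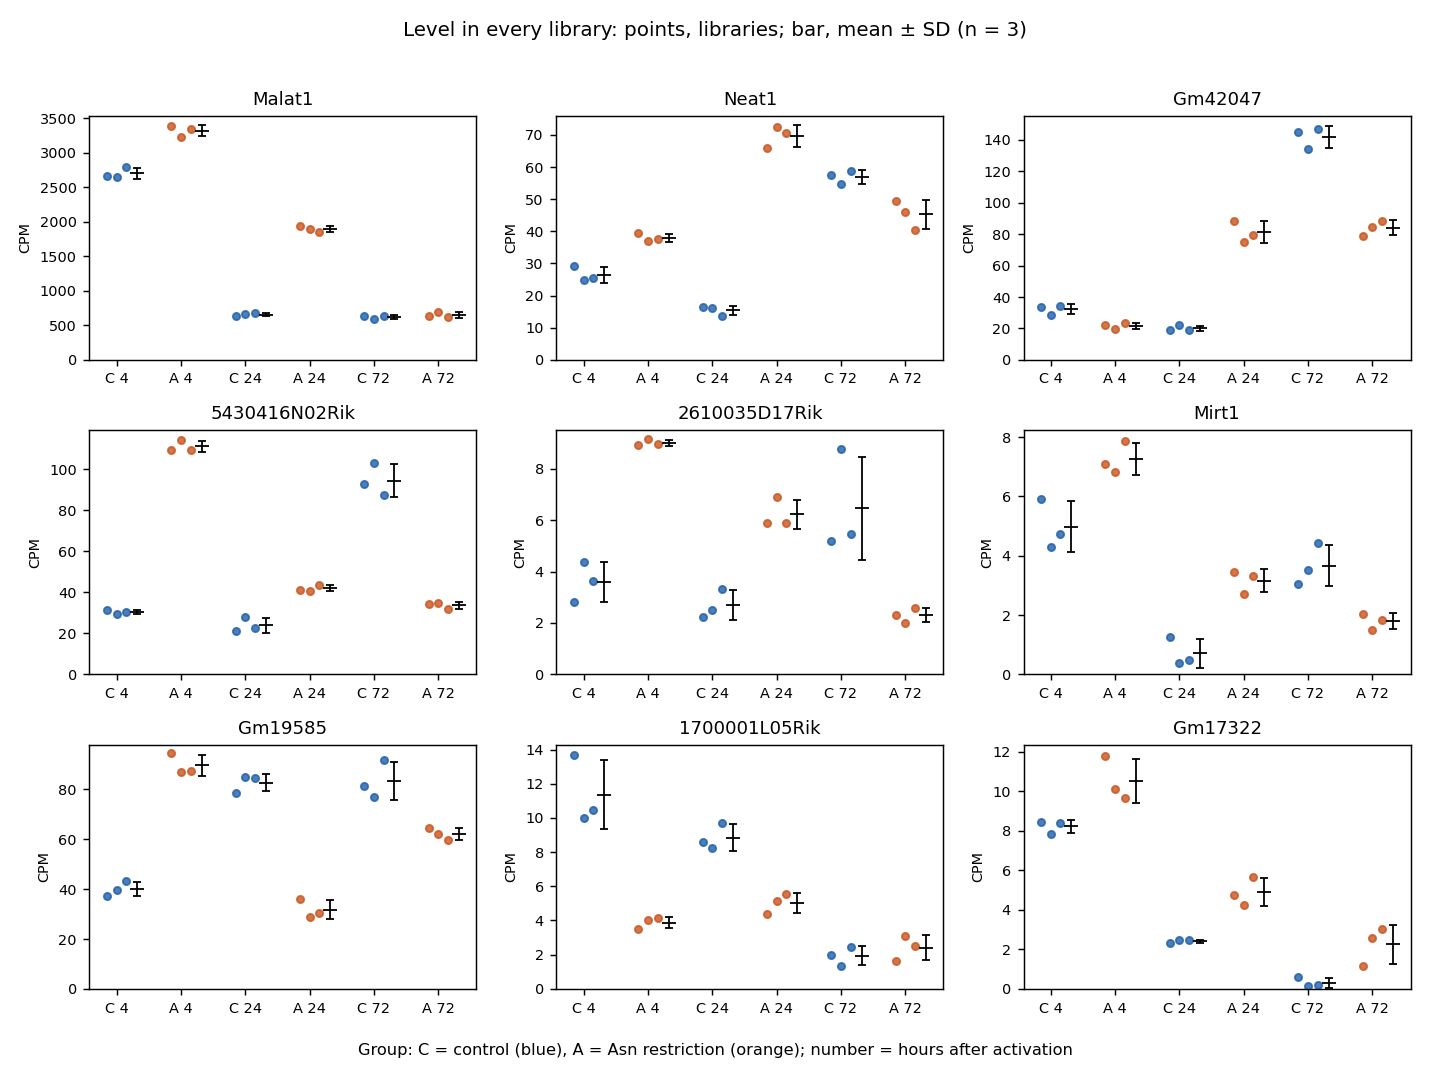
Level (CPM after TMM scaling) of 9 lincRNAs in each library of the 6 groups, with control in blue, Asn restriction in orange and the mean ± SD (n = 3) in black; each panel has its own axis from 0. Malat1, Neat1, Gm42047 and Mirt1 are higher under restriction at 24 h, and 5430416N02Rik is above control at 4 h and below it at 72 h.

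Genes for the proteins of these bodies were compared as lists, beside 27.5% higher and 28% lower of all genes tested at 24 h and 25.4% and 23.8% at 72 h. Of 19 genes for paraspeckle proteins, 3 rose and 11 fell at 24 h, and 14 rose and 0 fell at 72 h. Their median was -0.18 at 24 h against 0.015 for all genes, and 0.40 at 72 h against -0.01. With ERCC scaling 2 rose and 0 fell at 24 h, the median being 0.04 against 0.25 for all genes, and 14 rose and 0 fell at 72 h. The list thus lay below all genes at 24 h and above them at 72 h by both scalings. Sfpq, a core paraspeckle protein, rose by 1.495 (standard error 0.048, adjusted p = 1.94e-21) at 72 h. Its change of -0.32 at 24 h did not pass with ERCC scaling (adjusted p = 0.754).

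Of 17 genes for speckle and SR proteins, which bind and splice pre-mRNA, 5 rose and 7 fell at 24 h (4 and 0 with ERCC scaling), and 13 rose and 2 fell at 72 h (13 and 0). Son, a scaffold of nuclear speckles, rose by 0.65 (standard error 0.041, adjusted p = 1.53e-14) at 24 h, when 7 of the list fell. Srsf2, a splicing factor, rose by 1.14 (standard error 0.051, adjusted p = 4.69e-18) at 72 h. At 4 h both lists were mixed, with 6 higher and 5 lower of 19 and 7 higher and 8 lower of 17, beside 23.6% and 22% of all genes. The counts of the speckle list at 24 h lie near those shares and near the 30.8% and 36.8% of genes with at least 1000 counts.

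Genes of nuclear RNA decay, which degrades many non-coding transcripts, were also compared. Of 19 tested genes for the nuclear exosome and its adaptors, 2 rose and 13 fell at 24 h (median -0.24), and 13 rose and 3 fell at 72 h (median 0.50). With ERCC scaling the falls were lost, at 2 and 0 (median -0.01 against 0.25 for all genes) and 13 and 0 (median 0.80 against 0.31). Exosc9, a subunit of the exosome ring, rose by 1.01 (standard error 0.0802, adjusted p = 3.54e-12) at 72 h, and Dis3, a catalytic subunit, by 1.01 (standard error 0.053, adjusted p = 2.35e-16). Zcchc7, a subunit of an adaptor complex, rose at 24 h (log2 change 0.87, standard error 0.072, adjusted p = 8.69e-12), against the direction of most of the exosome list. In the list for nonsense-mediated decay, 9 of 14 rose and 2 fell at 4 h (0 and 0 with ERCC scaling), 7 and 2 at 24 h (6 and 0), and 4 and 6 at 72 h (4 and 0). Smg1, the kinase of that pathway, rose by 0.796 (standard error 0.044, adjusted p = 8.71e-16) at 24 h. The shares of all genes tested were 23.6% higher and 22% lower at 4 h, 27.5% and 28% at 24 h, and 25.4% and 23.8% at 72 h. These counts describe the lists, with no test of a list as a whole.

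A group of 9 members rose at 4 h and at 24 h and then fell at 72 h, among them 5430416N02Rik, Dubr, 2610035D17Rik, Epb41l4aos, Neat1 and AC165953.2. The 9 were 10.3% of members, against 5.69% of all genes tested. AC165953.2 would have missed the count threshold without restricted cells at 24 h or control at 72 h, the higher groups in those comparisons. Gm48604, another of the 9, would have missed it without any 1 of the 6 groups. The choice of members thus bears on the calls of both. 5430416N02Rik (ENSMUSG00000097772.7, chr5:100420842-100429535, minus strand) had 31.6, 29.2 and 30.4 CPM in control and 109, 114 and 109 CPM under restriction at 4 h. No restricted library overlapped control, and the rise was the largest that passed the test at 4 h (log2 change 1.86, standard error 0.079, adjusted p = 1.29e-18). At 24 h it was 23.8 ± 3.499 CPM in control and 41.9 ± 1.49 CPM under restriction (log2 change 0.82, standard error 0.082, adjusted p = 5.52e-10). At 72 h control libraries had 92.8, 103 and 87.3 CPM and restricted libraries had 34.2, 34.95 and 31.6 CPM (log2 change -1.49, standard error 0.078, adjusted p = 2.41e-16). The effect at 72 h less that at 4 h was -3.35 (standard error 0.11, adjusted p = 1.97e-21). The nearest protein-coding gene, Sec31a, 4608 bp away on the same strand, changed by -0.16 (standard error 0.046, adjusted p = 0.00431) at 4 h, which did not pass with ERCC scaling (adjusted p = 0.285).

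2610035D17Rik (chr11:113043895-113201838, minus strand) followed the same course at a lower level. It had 2.82, 4.37 and 3.64 CPM in control and 8.93, 9.15 and 8.96 CPM under restriction at 4 h (log2 change 1.34, standard error 0.201, adjusted p = 1.42e-06), and 2.22, 2.51 and 3.34 and 5.91, 6.88 and 5.89 CPM at 24 h (log2 change 1.204, standard error 0.21, adjusted p = 9.27e-06). By 72 h the order was reversed, with 5.18, 8.78 and 5.46 CPM in control and 2.31, 2.02 and 2.596 CPM under restriction (log2 change -1.45, standard error 0.22, adjusted p = 1.55e-06). Control replicate 2 at 72 h, the library with the fewest gene counts, stood above the other two, and the media overlapped at none of the 3 times.

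Dubr, a lincRNA studied in mouse muscle cells, rose at 4 h from 1.59 ± 0.0799 to 4.400 ± 0.952 CPM (log2 change 1.45, standard error 0.19, adjusted p = 1.86e-07), yet its levels were higher at later times in both media, with 28.8 ± 2.18 CPM in control and 19.3 ± 1.48 CPM under restriction at 72 h (log2 change -0.58, standard error 0.11, adjusted p = 5.52e-05; adjusted p = 0.453 with ERCC scaling). Epb41l4aos had 21.1, 20.2 and 21.4 CPM in control and 57.8, 53.7 and 57.3 CPM under restriction at 4 h, with no overlap (log2 change 1.42, standard error 0.11, adjusted p = 2.80e-12). At 72 h it had 47.4 ± 9.87 and 30.6 ± 3.57 CPM (log2 change -0.63, standard error 0.11, adjusted p = 1.16e-05; adjusted p = 0.21 with ERCC scaling). By the TMM scaling these members were thus higher in restricted cells early and in control cells late.

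Other members changed most at 24 h. Gm42047 (ENSMUSG00000110631.1, chr8:121833247-121841178, plus strand; within the span of Gm20388 on the same strand) first fell at 4 h, from 33.8, 28.4 and 34.2 to 22.01, 19.8 and 23.2 CPM (log2 change -0.58, standard error 0.088, adjusted p = 1.71e-06). At 24 h it had 19.2, 21.99 and 18.7 CPM in control and 88.7, 75.1 and 79.7 CPM under restriction (log2 change 2.03, standard error 0.082, adjusted p = 3.62e-19). At 72 h control was the higher group, at 145, 134 and 147 against 78.9, 84.7 and 88.4 CPM (log2 change -0.76, standard error 0.072, adjusted p = 2.37e-10; adjusted p = 0.0877 with ERCC scaling). In control its level rose from 4 to 72 h (2.13 on the log2 scale), whereas the means of restricted cells at 24 and 72 h were 81.2 and 84.00 CPM. The neighbour Klhdc4, 3678 bp away on the other strand, changed by 0.07 (standard error 0.053, adjusted p = 0.307) at 24 h and by 0.86 (standard error 0.058, adjusted p = 1.04e-13) at 72 h.

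Mirt1 (chr19:53443230-53464796, minus strand; it overlaps another lincRNA on the other strand), named for myocardial infarction in mice, showed the same swing at low levels. Control libraries had 1.255, 0.375 and 0.491 CPM and restricted libraries 3.46, 2.71 and 3.32 CPM at 24 h (log2 change 2.14, standard error 0.301, adjusted p = 4.21e-07), and at 72 h they had 3.06, 3.51 and 4.44 and 2.04, 1.4996 and 1.82 CPM (log2 change -1.04, standard error 0.27, adjusted p = 0.00167; adjusted p = 0.0591 with ERCC scaling). The groups did not overlap at either time, but Mirt1 would have missed the count threshold without restricted cells at 24 h or control at 72 h, the groups in which it was higher, so the choice of members bears on both changes. Gm37387, whose position was not matched, rose from 2.64 ± 1.17 to 9.58 ± 1.66 CPM at 24 h (log2 change 1.86, standard error 0.23, adjusted p = 5.85e-08). Gm17767 rose from 2.799 ± 0.6401 to 8.801 ± 1.15 CPM (log2 change 1.65, standard error 0.16, adjusted p = 4.83e-10), and in control it rose from 4 to 72 h (6.05 on the log2 scale). At 72 h it had 63.4 ± 1.64 and 60.9 ± 1.96 CPM, where the change of -0.06 (standard error 0.102, adjusted p = 0.682) did not pass.

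The 10 members that fell at 4 h and the 9 that fell at 24 h shared 4, or 4.6% of members. Of all genes tested, 13.8% fell at both times. 1700001L05Rik (chr15:83353847-83367282, minus strand) had 13.7, 9.99 and 10.4 CPM in control and 3.497, 4.03 and 4.12 CPM under restriction at 4 h, the largest fall at that time (log2 change -1.56, standard error 0.19, adjusted p = 3.10e-08). It was still lower at 24 h, with 8.59, 8.24 and 9.72 and 4.38, 5.12 and 5.55 CPM (log2 change -0.82, standard error 0.18, adjusted p = 0.00024; adjusted p = 0.0715 with ERCC scaling), and the media overlapped at 72 h. Gm10076 had 44.99, 47.1 and 44.6 and 22.5, 21.5 and 21.3 CPM at 4 h (log2 change -1.06, standard error 0.101, adjusted p = 2.45e-10) and was lower at 24 h too (log2 change -0.71, standard error 0.0900, adjusted p = 5.89e-08; adjusted p = 0.0504 with ERCC scaling). Gm28875 fell at 4 h from 2.299 ± 0.216 to 1.14 ± 0.188 CPM (log2 change -1.03, standard error 0.24, adjusted p = 0.000724) and rose at 24 h to 5.57 ± 0.416 from 3.82 ± 0.628 CPM (log2 change 0.55, standard error 0.17, adjusted p = 0.00604). 2900097C17Rik (Norad; chr2:156388065-156392979, minus strand) fell from 418 ± 7.87 to 317 ± 19.5 CPM at 4 h (log2 change -0.400, standard error 0.049, adjusted p = 3.72e-08) and rose from 237 ± 12.6 to 310.4 ± 1.59 CPM at 24 h (log2 change 0.39, standard error 0.049, adjusted p = 5.76e-08). At both times control and restricted libraries did not overlap.

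Gm19585 (ENSMUSG00000100150.2, chr17:51986415-52163976, plus strand) turned in the opposite sense. It had 37.3, 39.6 and 43.1 CPM in control and 94.6, 86.9 and 87.5 CPM under restriction at 4 h, a rise (log2 change 1.16, standard error 0.078, adjusted p = 8.19e-14), and 78.7, 84.8 and 84.7 against 36.1, 28.8 and 30.4 CPM at 24 h, the largest fall of any member at that time (log2 change -1.38, standard error 0.077, adjusted p = 1.24e-15). At 72 h it was 83.5 ± 7.597 and 61.99 ± 2.402 CPM (log2 change -0.43, standard error 0.075, adjusted p = 1.29e-05; adjusted p = 0.768 with ERCC scaling). The order of the media was thus exchanged between 4 h and 24 h, and the libraries overlapped at neither time. The nearest protein-coding gene, Satb1, a chromatin organizer of T cells that lies 153125 bp away, rose at 24 h (log2 change 0.48, standard error 0.039, adjusted p = 4.82e-12).

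Of the 16 members that rose at 72 h, 6 had also risen at 24 h. The share of all genes with both rises was not counted. Gm17322 (ENSMUSG00000097604.1, chr9:57998041-58007451, plus strand) had 0.612, 0.167 and 0.1799 CPM in control and 1.16, 2.595 and 3.01 CPM under restriction, the largest rise at 72 h (log2 change 2.73, standard error 0.39, adjusted p = 5.74e-07). It shares exonic bases with Cyp11a1 on the same strand, a steroid synthesis gene whose change of -0.75 (standard error 0.46, adjusted p = 0.182) did not pass. At 4 h it had been 8.22 ± 0.328 CPM in control and 10.5 ± 1.11 CPM under restriction, and in both media it fell to 72 h (-4.57 and -2.19 on the log2 scale). Gm17322 would have missed the count threshold without restricted cells at 4 h, its highest group, so its fall under restriction is no independent result. D730045B01Rik had 2.28, 1.42 and 2.94 CPM in control and 7.01, 8.48 and 6.08 CPM under restriction, with no overlap (log2 change 1.66, standard error 0.27, adjusted p = 5.11e-06), after no change that passed at 4 h or 24 h. It is near the count threshold and would have missed it without any 1 of the 6 groups. Gm47015 had 2.45, 3.84 and 3.898 and 6.12, 7.15 and 8.26 CPM (log2 change 1.11, standard error 0.16, adjusted p = 5.50e-07) and had been lower under restriction at 24 h (log2 change -0.38, standard error 0.0995, adjusted p = 0.00162; adjusted p = 0.636 with ERCC scaling). Lncpint, a target of p53 that binds chromatin-silencing complexes, rose at all 3 times, at 72 h from 14.7, 14.7 and 14.7 to 26.9, 30.5 and 26.1 CPM (log2 change 0.92, standard error 0.11, adjusted p = 9.18e-09). Its rise of 0.35 at 4 h did not pass with ERCC scaling (adjusted p = 0.552) or without TMM factors (adjusted p = 0.0517). AI504432 also rose at all 3 times (0.43, 0.59 and 0.65 on the log2 scale; adjusted p = 0.314 at 4 h with ERCC scaling). In control it fell from 262 ± 18.3 CPM at 4 h to 15.9 ± 4.098 CPM at 72 h. Its neighbour Kcna3 was 179.8 CPM at 4 h and 15.7 CPM at 72 h in control and rose at 24 h (log2 change 0.503, standard error 0.064, adjusted p = 6.39e-08).

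By position and strand, 8 members contain hairpins of miRNAs, whose 31 mature forms are in RefSeq (GRCm38.p6). The libraries measured host RNA and not the mature miRNAs. Main mature forms are printed here, 5′ to 3′ with the seed (bases 2 to 8, which pair with target messenger RNAs) in capitals. Mir155hg (chr16:84703167-84715245, plus strand) carries miR-155 at chr16:84714143-84714165, Mir17hg (chr14:115042879-115046727, plus strand) carries the 6 hairpins of the miR-17 cluster, 6720427I07Rik (chr13:48532905-48546500, minus strand) carries 3 let-7 hairpins, Mir142hg (chr11:87755577-87757270, plus strand) carries miR-142a, 2900076A07Rik (chr7:81523550-81531498, plus strand) carries miR-1839, and AL805899.1 (chr4:88909855-88938521, minus strand) carries miR-31.
miR-155-5p: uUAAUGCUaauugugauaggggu
miR-17-5p: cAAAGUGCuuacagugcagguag
miR-20a-5p: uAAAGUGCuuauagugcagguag
miR-18a-5p: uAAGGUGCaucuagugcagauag
miR-19a-3p: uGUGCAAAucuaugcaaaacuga
miR-19b-3p: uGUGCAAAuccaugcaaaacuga
miR-92a-3p: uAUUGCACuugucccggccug
let-7a-5p: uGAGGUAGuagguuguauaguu
let-7d-5p: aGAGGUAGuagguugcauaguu
let-7f-5p: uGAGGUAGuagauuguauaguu
miR-142a-5p: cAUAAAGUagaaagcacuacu
miR-142a-3p: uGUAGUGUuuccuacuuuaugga
miR-1839-5p: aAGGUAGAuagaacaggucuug
miR-31-5p: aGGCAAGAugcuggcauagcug

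The 3 let-7 forms share the seed GAGGUAG, miR-17-5p and miR-20a-5p share AAAGUGC, and miR-19a-3p and miR-19b-3p share GUGCAAA. No seed was shared between hosts. Ftx (miR-421 and miR-374b) and 4833445I07Rik (miR-191 and miR-425) are the remaining hosts.

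Of the 8 hosts, 3 rose at 4 h, 5 rose at 24 h, and 3 rose and 3 fell at 72 h, with no fall at 4 h or 24 h. With ERCC scaling 2, 5 and 4 rose, and 0, 0 and 2 fell. Of all members 40.2%, 63.2% and 18.4% rose at the 3 times, and of all genes 23.6%, 27.5% and 25.4%, so that at 4 h and 24 h the hosts were close to the other members. Mir155hg, which T cells induce on activation, had 77.7, 71.2 and 81.7 CPM in control and 121, 126 and 119 CPM under restriction at 4 h (log2 change 0.66, standard error 0.085, adjusted p = 8.65e-08) and 25.4, 27.2 and 24.4 and 49.5, 35.5 and 44.3 CPM at 24 h (log2 change 0.75, standard error 0.094, adjusted p = 4.23e-08). The groups did not overlap at either time, and from 4 to 72 h its level fell in both media (-2.25 and -3.27 on the log2 scale). At 72 h it had 16.3, 13.96 and 17.9 CPM in control and 13.2, 13.7 and 11.3 CPM under restriction, a change of -0.35 (standard error 0.12, adjusted p = 0.0135) that was 0.02 with ERCC scaling and was lost without control replicate 3 (adjusted p = 0.0889) or without restricted replicate 3 (adjusted p = 0.108).

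Mir17hg, which the MYC protein is known to activate, did not pass at 4 h (log2 change 0.02, standard error 0.084, adjusted p = 0.859) or at 24 h (log2 change 0.08, standard error 0.089, adjusted p = 0.486). Control libraries had 7.13, 3.76 and 6.84 CPM at 72 h, while restricted libraries had 14.02, 15.5 and 16.1 CPM (log2 change 1.32, standard error 0.13, adjusted p = 4.98e-10). Levels at 4 h had been 83.7 ± 5.93 and 85.2 ± 4.48 CPM, and the host fell to 72 h in both media (-3.78 and -2.48 on the log2 scale). Myc itself was at 197 and 353 CPM in control and restricted cells at 72 h (log2 change 0.84, standard error 0.038, adjusted p = 5.72e-18). Pvt1 (chr15:62037986-62378096, plus strand), which starts 47612 bp beyond Myc on the same strand, went the other way at 72 h, with 31.2, 29.4 and 28.2 CPM in control and 16.5, 18.5 and 13.7 CPM under restriction (log2 change -0.87, standard error 0.098, adjusted p = 6.55e-09; adjusted p = 0.0522 with ERCC scaling).

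Mir142hg, the host of a miRNA of blood cells, had 13.8, 11.9 and 12.1 CPM in control and 26.96, 20.6 and 27.6 CPM under restriction at 24 h (log2 change 0.996, standard error 0.13, adjusted p = 8.65e-08) and 8.91, 13.9 and 11.4 and 5.71, 5.19 and 5.87 CPM at 72 h (log2 change -1.01, standard error 0.16, adjusted p = 2.75e-06). The direction reversed between the times, and the groups were separate at both. Tspoap1, 3271 bp away on the same strand, changed by 0.84 (standard error 0.25, adjusted p = 0.00551) and -2.31 (standard error 0.18, adjusted p = 3.53e-12) at these times. 2900076A07Rik rose at 24 h (log2 change 0.97, standard error 0.18, adjusted p = 4.19e-05) and fell at 72 h from 6.01, 5.77 and 6.78 to 1.701, 2.25 and 2.54 CPM (log2 change -1.499, standard error 0.19, adjusted p = 7.65e-08). The let-7 host 6720427I07Rik rose at 4 h (log2 change 0.51, standard error 0.102, adjusted p = 9.75e-05; adjusted p = 0.215 with ERCC scaling) and at 24 h (log2 change 0.41, standard error 0.11, adjusted p = 0.00189), and AL805899.1 at 4 h from 4.17, 5.26 and 4.45 to 10.4, 9.21 and 8.18 CPM (log2 change 1.02, standard error 0.23, adjusted p = 0.000416). AL805899.1 also rose at 72 h. It would have missed the count threshold without restricted cells at 4 h, the group in which it was highest, or without those at 72 h. The choice of members thus bears on both rises and on the counts of hosts that rose at 4 h and at 72 h.

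**Figure D4:**
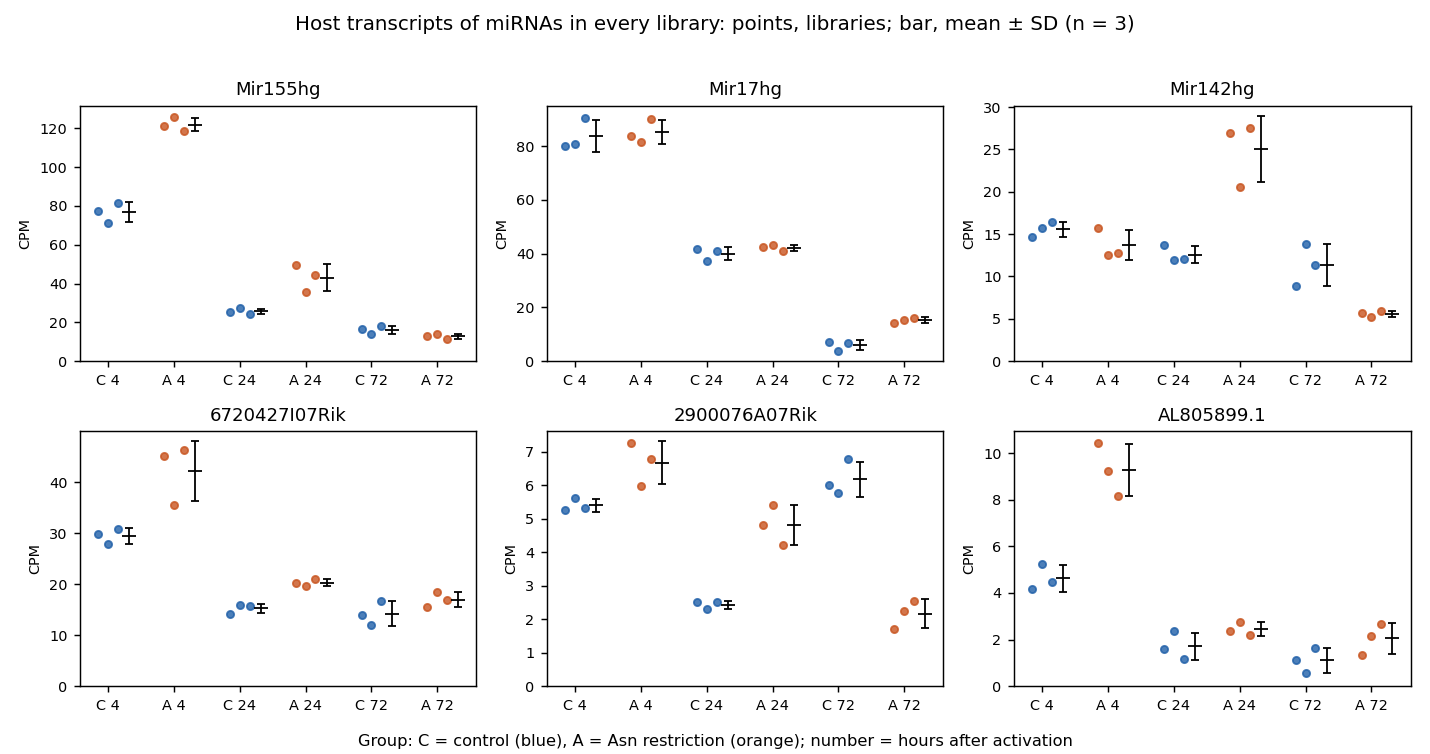
Level (CPM after TMM scaling) of 6 host transcripts of miRNAs in each library, with control in blue, Asn restriction in orange and the mean ± SD (n = 3) in black; each panel has its own axis from 0. Mir17hg is higher under restriction at 72 h, where it had 14.02 to 16.1 CPM against 3.76 to 7.13 in control, and Mir142hg is higher under restriction at 24 h and lower at 72 h.

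Genes that make miRNAs from such hosts were compared as a list. Of 10 genes, 2 rose and 6 fell at 4 h (0 and 1 with ERCC scaling), 3 and 5 at 24 h (2 and 0), and 6 and 2 at 72 h (6 and 0), beside 23.6% higher and 22% lower of all genes at 4 h, 27.5% and 28% at 24 h, and 25.4% and 23.8% at 72 h. Drosha, the nuclease that cuts hairpins from hosts, rose by 0.51 (standard error 0.065, adjusted p = 6.94e-08) at 72 h, and Dgcr8, its RNA-binding partner, by 1.22 (standard error 0.086, adjusted p = 2.48e-13). Ago2 and Ago3, which load mature miRNAs, rose at 24 h (0.68 and 0.899 on the log2 scale), when 5 of the list fell.

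Effects at different times were compared as contrasts of the same fit. Against the effect at 4 h, that at 24 h was higher for 30 members and lower for 8, with 18.5% and 17.8% of all genes tested. It was 45 and 5 members without TMM factors and 29 and 2 with ERCC scaling, where no share of all genes was counted. Against the effect at 24 h, that at 72 h was higher for 12 and lower for 44, with 29.5% and 27.7% of all genes, and the median difference was -0.755 for members and -0.035 for all genes. The largest downward differences were those of Mirt1 (log2 change -3.18, standard error 0.41, adjusted p = 5.35e-08), Gm42047 (log2 change -2.78, standard error 0.11, adjusted p = 9.36e-20) and 2610035D17Rik (log2 change -2.66, standard error 0.301, adjusted p = 5.24e-09). The largest upward ones were those of D730045B01Rik (log2 change 1.76, standard error 0.39, adjusted p = 0.000238), Gm17322 (log2 change 1.71, standard error 0.48, adjusted p = 0.00278) and Gm47015 (log2 change 1.496, standard error 0.19, adjusted p = 3.83e-08). Mirt1 and D730045B01Rik would have missed the count threshold without a group used here, so the choice of members bears on their differences. A comparison of 72 h with 4 h, which holds none of the 24 h libraries, gave 14 higher and 39 lower, with 25.1% and 24.3% of all genes.

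**Figure D5:**
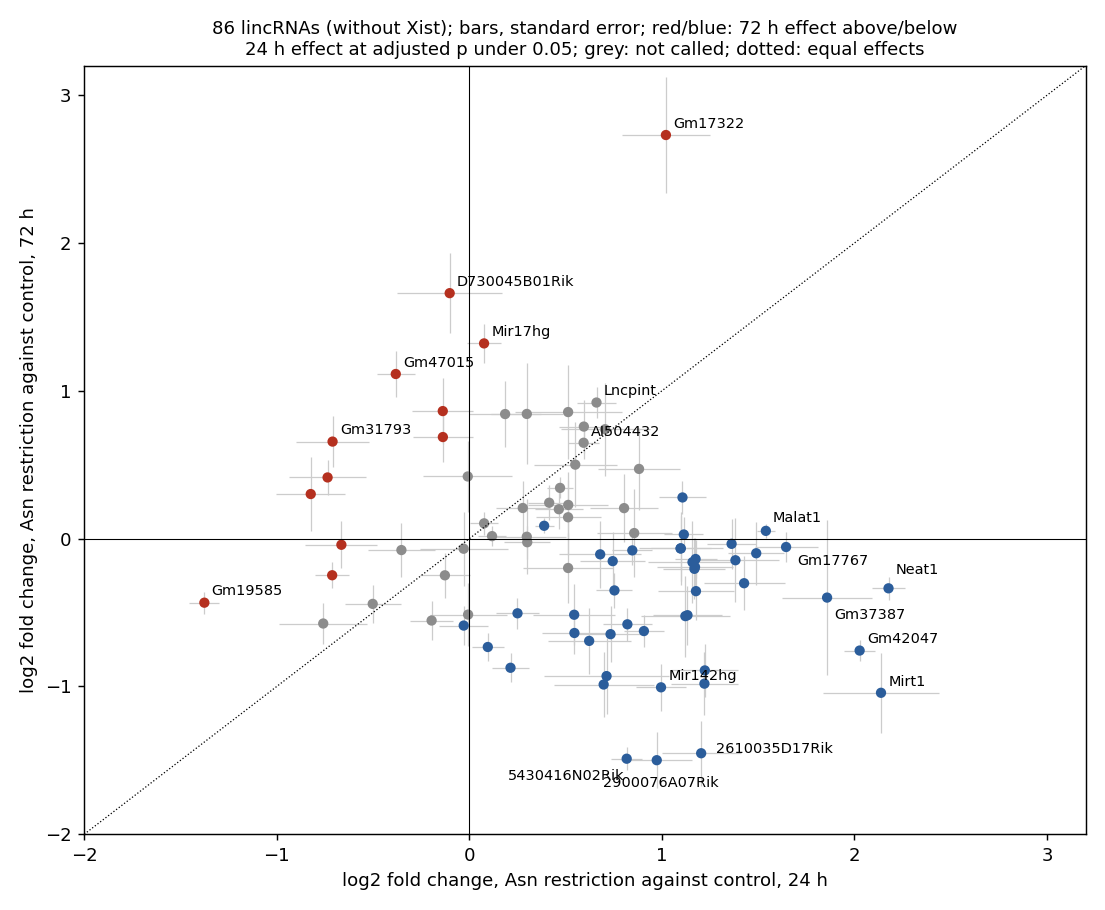
Log2 fold change under Asn restriction at 24 h (x axis) against 72 h (y axis) for 86 lincRNAs, Xist left out, with bars for the standard error; blue and red mark members whose 72 h effect lies below or above the 24 h effect at an adjusted p under 0.05, and grey those not called. Most points lie right of 0 and below the dotted line of equal effects, and Gm17322 stands alone at the top.

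By their calls at the 3 times, 16 members rose at 4 h and 24 h and were not called at 72 h, and 14 rose at 24 h alone. Another 9 rose at both and then fell, and 7 rose at 24 h and fell at 72 h without a call at 4 h. These are 18.4%, 16.1%, 10.3% and 8.05% of members, where 5.16%, 7.46%, 5.69% and 3.76% of all genes tested had those calls. In all, 28 rose at both 4 h and 24 h and 4 fell at both, while 18 rose at 24 h and fell at 72 h, and 3 did the reverse. These are 32.2%, 4.6%, 20.7% and 3.45% of members, where 13.2%, 13.8%, 10.3% and 13.6% of all genes tested had the same calls. The 4 that fell at both were Gm10076, Gm47015, 1700001L05Rik and Bc1, of which Bc1 lost its call at 4 h under ERCC scaling (adjusted p = 0.0915), under several other settings and when any 1 of the 6 libraries from 4 h was left out, and Gm47015 under ERCC scaling (adjusted p = 0.0563). The same call was made at all 3 times for 3 members that rose (AI504432, Lncpint and Gm39323) and for 1 that fell (Gm10076), or 3.45% and 1.15% of members against 2.35% and 1.92% of all genes. The fall of Gm10076 at 72 h, where the media overlapped, was lost when any 1 of 4 libraries was left out, and with ERCC scaling its change was 0.05 at 72 h and did not pass at 24 h (adjusted p = 0.0504). No call was made at any time for 6 members, 6.9% against 21.5% of all genes. All genes tested include genes under 1000 counts, which the members by their choice do not, and these shares were not matched for counts. The controls of each time are separate libraries, so these calls do not share samples.

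Most members changed with time after activation. In control cells, 16 members rose and 52 fell from 4 to 24 h (34.9% and 34.7% of all genes), 31 rose and 30 fell from 24 to 72 h (35.7% and 35.1%), and 27 rose and 48 fell from 4 to 72 h (40.8% and 40.3%). Under Asn restriction 23 rose and 42 fell from 4 to 24 h (34.9% and 30.9%), 17 rose and 55 fell from 24 to 72 h (35.3% and 35.5%), and 21 rose and 56 fell from 4 to 72 h (41.6% and 39.8%). The first of these splits turned with the scaling, at 35 and 30 without TMM factors and 34 and 17 with ERCC scaling, where the median of all genes moved to 0.36 and 0.56. By mean level, 30 members were highest in the restricted cells at 4 h, 21 in control at 72 h and 20 in restricted cells at 24 h, and 8, 5 and 3 in control at 4 h, restricted at 72 h and control at 24 h. Highest groups were not counted over all genes.

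Lockd lies 3579 bp from Cdkn1b, a cell cycle inhibitor gene, on the same strand. It was near 0 at 4 h (0.117, 0.446 and 0.0479 CPM in control) and reached 36.1, 42.1 and 34.2 CPM in control and 26.9, 23.9 and 24.6 CPM under restriction at 72 h, so that control was higher in every library (log2 change -0.57, standard error 0.14, adjusted p = 0.000736; adjusted p = 0.389 with ERCC scaling). Control at 72 h held 56.3% of its level summed over the 6 groups. Cdkn1b was also lower at 72 h (log2 change -0.603, standard error 0.069, adjusted p = 8.53e-09; adjusted p = 0.315 with ERCC scaling) but rose at 24 h (log2 change 0.65, standard error 0.073, adjusted p = 6.88e-09), when Lockd was lower (log2 change -0.76, standard error 0.23, adjusted p = 0.00562; adjusted p = 0.128 with ERCC scaling). Bc1, a short cytoplasmic RNA known from rodent neurons, rose in control from 0.997, 0.981 and 1.197 CPM at 4 h to 22.2, 22.98 and 19.6 CPM at 72 h (log2 change 4.31, standard error 0.18, adjusted p = 3.68e-20). At 72 h it was 31.8, 25.6 and 28.8 CPM under restriction (log2 change 0.41, standard error 0.12, adjusted p = 0.00375), and at 24 h restriction lowered it (log2 change -0.74, standard error 0.200, adjusted p = 0.00235; adjusted p = 0.178 with ERCC scaling).

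AW112010 rose from 4 to 72 h in control (log2 change 2.03, standard error 0.11, adjusted p = 6.92e-17). It had 99.2, 99.5 and 102 CPM in control and 206, 169 and 166 CPM under restriction at 24 h (log2 change 0.85, standard error 0.103, adjusted p = 2.99e-08), and at 72 h the media overlapped at 212, 145 and 242 and 188, 179 and 202 CPM. 1700020I14Rik, named Oip5os1 by RefSeq and known as Cyrano, which promotes decay of the miRNA miR-7, rose at 24 h from 88.6 ± 1.52 to 123 ± 4.23 CPM (log2 change 0.47, standard error 0.067, adjusted p = 5.56e-07) and at 72 h from 72.4 ± 11.5 to 92.2 ± 4.18 CPM (log2 change 0.34, standard error 0.0704, adjusted p = 0.000129).

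The 3 X-linked members belong to the X-inactivation centre. Xist rose under restriction within the 24 h libraries, from 342, 346 and 359 to 681, 652 and 618 CPM (log2 change 0.897, standard error 0.058, adjusted p = 3.01e-14), and gave at most 5 counts in any other library. Ftx and Jpx overlap each other on opposite strands near it. Ftx rose at 24 h (log2 change 0.59, standard error 0.13, adjusted p = 0.000279) and at 72 h, from 2.81 ± 0.618 to 4.79 ± 0.209 CPM (log2 change 0.76, standard error 0.18, adjusted p = 0.0008). Jpx, an activator of Xist, rose at 24 h (log2 change 0.51, standard error 0.17, adjusted p = 0.0107). It would have missed the count threshold without restricted cells at 24 h, its highest group, so its rise is no independent result.

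Neighbouring protein-coding genes moved with some members and against others. At 24 h, 32 of the 44 members with a protein-coding gene within 5 kb rose, and of those neighbours 15 rose, 5 fell and 12 were not called. At 72 h, 14 of the 44 fell, with 9 neighbours lower, 3 higher and 2 not called. Of 22 members that rose at 24 h with a more distant neighbour, 20 neighbours were tested, of which 6 rose and 7 fell. Of 15 that fell at 72 h with a more distant neighbour, 13 neighbours were tested, of which 8 were lower, 3 higher and 2 not called, about as within 5 kb. At 4 h, 18 members within 5 kb rose, with 8 neighbours higher and 4 lower, and 16 further away rose, with 5 higher and 2 lower of 13 tested. These counts stand beside 27.5% higher and 28% lower of all genes tested at 24 h and 23.8% lower at 72 h and 23.6% higher at 4 h, and they have no test of their own.

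Promoters of 50 members were in the RefSeq set (GRCm38.p6; 56 windows of 250 bases before to 50 after the start). Median GC content was 51.3% over these and 52.7% over all 32817 windows of the set. Searched on both strands, CACGTG (E-box, bound by MYC and related factors) was in 10.7% of member windows and 7.15% of all, TGATGNAA (the core of amino acid response elements, bound by ATF4 with a partner) in 1.79% and 3.97%, and TGANTCA (AP-1) in 8.93% and 7.81%. The 4 matches printed are examples, in 3 members described above that moved under restriction, with the motif in capitals. Other members that moved had matches too, among them Mirt1 (AP-1), Jpx (E-box) and D730003I15Rik (E-box and AP-1). A match is letters in a window and says nothing of binding.
1700001L05Rik, at -190 from the start, chr15:83367469-83367498, minus strand: tggcgtctgcgCACGTGagggcagtgaggg
1700001L05Rik, at -144 from the start, chr15:83367423-83367452, minus strand: agaacgagcggCACGTGggcgacgagcagg
Lncpint, at -49 from the start, chr6:31218505-31218534, minus strand: gctgctgcagtCACGTGggagcccctttaa
Bc1, at -183 from the start, chr7:144914276-144914305, plus strand: gaaggtatctcTGATGGAAatgatgagaaa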

How the data were processed

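Whole-number counts per gene were taken as deposited for 18 libraries. Tools listed in the submitters' processing notes are Trim Galore 0.60, STAR 2.7 and RSEM 1.31, with builds hg19 and mm10; strand handling is not given in the sources used here. As deposited by the authors, the normalized signal values are counts divided by 1 factor per library, with group means beside them, and were not used. The deposited log2 fold changes and p-values hold the authors' own comparisons and were not used.

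The 63 ERCC rows of 18585 were kept out of sizes and tests. In R 4.3.3, edgeR 4.0.16 (filterByExpr, TMM, quasi-likelihood) was fitted to 18 libraries with 6 group means and 12 residual degrees of freedom, and p-values were adjusted over 14871 genes (common biological coefficient of variation 0.0607). The standard error is the log2 fold change over the square root of F. All library pairs of a group differed beyond sampling noise (chi-square test), those with control replicate 2 at 72 h most. Precision is lowest for members near 1 CPM.

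The members and gene lists were chosen with earlier results of these data known. Named members are the 10 with most counts, those of a list of described lincRNAs, the 5 largest rises and falls at each time among called members without overlap and with at least 2 CPM in a group, the 3 largest over time in control and between effects, those at the threshold, called list genes and neighbours. D730003I15Rik, 6720427I07Rik, AL805899.1, Gm39323, Gm48604 and AC165953.2 were named after their values were seen. Alternatives were DESeq2 1.42.0 (size factors, Wald test), no TMM, ERCC scaling, other filters, subsets of libraries and members, and a replicate block; the tests from 4 to 72 h, ERCC scaling without restricted replicate 2 at 72 h, the members without chromosome X and those over the threshold without any 1 group were added after the data were seen. Methods were tested on simulated data.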

Additional observations from a re-analysis of the deposited data

Results flagged for a closer look

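Effects of Asn restriction differed between times for many members, by the test of the difference itself. From 4 h to 24 h the effect was higher for 30 members and lower for 8, and from 24 h to 72 h it was higher for 12 and lower for 44. Of all genes tested, 18.5% and 17.8% were higher and lower in the first and 29.5% and 27.7% in the second. By size on the log2 scale, the effect from 24 h to 72 h changed by -3.18 for Mirt1, -2.78 for Gm42047 and -2.66 for 2610035D17Rik, and by 1.76 for D730045B01Rik, 1.71 for Gm17322 and 1.496 for Gm47015. Mirt1, D730045B01Rik and Gm17322 are among the 21 members that would miss the count threshold without 1 group. For Mirt1 those groups include restricted cells at 24 h and control at 72 h, where its level was above that of the other medium, for D730045B01Rik they are all 6, and for Gm17322 only restricted cells at 4 h, which this comparison does not use. The 24 h libraries differ from the others in their sex-linked genes, so time and source of the cells cannot be told apart in these differences.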

How the results depend on the processing

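For each of the 9 comparisons, members called under DESeq2 size factors, the DESeq2 Wald test, no TMM factors, other filters on low counts, an adjusted p under 0.01, libraries of the compared times alone, 4 to 72 h in place of steps with 24 h, and no chromosome X members stayed within 1.5 times the reported count. That count takes rises and falls together and says nothing of direction. Under restriction from 4 to 24 h the balance turned without TMM factors, as given above. ERCC scaling gave 17 members at 4 h and 24 at 72 h in place of 45 each, and it moved the median of all genes. Without restricted replicate 2 at 72 h it gave 28 at 4 h and 36 at 72 h. Under ERCC scaling of all libraries the 72 h changes of Mir155hg (0.01717), Neat1 (0.01567) and Gm10076 (0.04621) changed sign, and 26 other results of named members no longer passed. Without that library these 3 changes were -0.34, -0.28 and -0.18, and none of them passed. Fewer members by construction gave lower counts. With the 29 that have at least 5000 counts, 23, 22 and 17 were called for the media at 4, 24 and 72 h, 16 and 20 for the effect at 24 against 4 h and at 72 against 24 h, 26 and 22 for control from 4 to 24 h and from 24 to 72 h, and 23 and 25 for restriction. With the 36 that overlap no other gene, these were 19, 27, 15, 18, 24, 27, 29, 25 and 31. Leaving out 1 library at a time gave 37 to 49 called at 4 h, 61 to 67 at 24 h, 40 to 46 at 72 h, 32 to 39 and 54 to 61 for the differences between effects, 64 to 70 and 58 to 63 in control over time, and 59 to 66 and 68 to 73 under restriction. Of 79 results of 37 named members, 50 changed under no alternative, and the fall of Bc1 at 4 h lost its call under more alternatives than any other.

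Replicate numbers are shared by the groups. Over 9 pairs of control and restricted libraries with the same time and number, the correlations of their deviations lay between -0.052 and 0.010. Only 1 library was closest to its own number, so the numbers do not pair the samples. With a replicate block, 44, 64 and 44 members were called at 4, 24 and 72 h, 36 and 56 for the differences between effects, 67 and 61 in control and 64 and 73 under restriction.

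Libraries come from one experiment with 3 per group. The 24 h libraries go against their sex label, so that no comparison of 24 h with other times separates time from source. Strand of counting is not given, which leaves 50 overlapping members uncertain. Members near 1 CPM rest on few counts. Which of TMM and ERCC scaling is nearer to RNA per cell was not tested.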
